A study of Mus musculus with 72 samples.

Results

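The 10 genes described here encode tenascins (Tnc, Tnr, Tnxb), thrombospondins (Thbs1, Thbs2, Thbs3), osteopontin (Spp1), periostin (Postn), SPARC (Sparc) and fibronectin (Fn1). They were picked by symbol from the 50600 genes of a count table, and all 10 symbols were found. The list was chosen by values measured in these libraries: Tnc was already known to be higher after GRP. Its levels with GRP and without are therefore given as a description, with no test. Its tests are for other comparisons (GRP+RC against RC, RC against mock, and mock cells between lines). Its calls with GRP enter only the counts in the section on how the results depend on the processing. As the whole list was put together with results of these libraries known, the p-values of the members set a difference against the spread between libraries and are no independent evidence.

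RNA was sequenced from 72 libraries of 6 mouse melanoma cell lines given 4 treatments, with 3 libraries in each of the 24 groups. Cells were starved for 18 h and then kept for 4 h in 0.5% serum with DMSO at 0.1% (mock), with 10 nM gastrin-releasing peptide (GRP), with 1 µM RC-3095 (RC), an antagonist of the GRP receptor GRPR, or with both (GRP+RC). The comparisons ask how transcripts answered GRP in cells with and without the receptor, and what the antagonist took away. Nothing in the labels says that the 3 libraries of a group came from separate cultures, so the p-values measure only the spread between these libraries.

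All lines carry the transgene Tyr::NRASQ61K/°, which places mutant NRAS under the tyrosinase promoter of pigment cells. Lines 1057 and 1064 came from female mice, are Cdkn2a-/- and Cdh1dF/dF with Tyr::CreA/°, and express GRPR on their own. The female line 1014 and the male line 1181 were transfected, with CMV::tGFP in the control cells 1014-Ctrl and 1181-Ctrl (both GRPRneg), and with CMV::Grpr/tGFP in 1014-Grpr and 1181-Grpr (both GRPRpos). Line 1181 is labelled Cdkn2a-/-;°/°;Cdh1dF/dF, without Cre, and the labels give no Cdkn2a or Cdh1 allele for 1014. Each line stands for the tumour it was grown from, and the CMV promoter drives Grpr regardless of cell type.

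Libraries held between 19512882 and 46862053 counts, so that 3 counts corresponded to at most 0.154 CPM (counts per 1000000, scaled by TMM). The melanocyte list was detected in full, with 8 of 8 genes over 1 CPM in every line, and the summed list ranged from 5504 CPM in 1181-Ctrl to 38200 CPM in 1014-Grpr. The fibroblast markers Dcn and Lum, the leukocyte markers Ptprc, Csf1r and Adgre1, the endothelial markers Pecam1 and Kdr and the keratinocyte markers Krt5, Krt14 and Epcam never passed 1 CPM. Other genes of these lists did: 4 of 6 fibroblast genes in 1064 (summed list at 10.3 to 37.1 CPM), 2 of 5 leukocyte genes in every line (up to 56.7 CPM) and 1 of 3 endothelial genes in 1057 and 1064 (up to 6.91 CPM). Some sums were higher with GRP than in mock: in 1057 the fibroblast sum went from 3.88 to 4.74 CPM to 5.63 to 6.41 CPM and the endothelial sum from at most 5.23 CPM to 6.50 to 6.91 CPM, and in 1014-Grpr the leukocyte sum from at most 5.29 CPM to 6.11 to 10.3 CPM. Their part in the results was not tested. Grpr stood at 188 to 276 CPM in 1057, 469 to 1273 in 1064 and 109 to 632 in 1014-Grpr. In 11 libraries of 1181-Grpr it stood at 8.46 to 80.7 CPM, and it stayed at or under 0.0914 CPM in 23 libraries of the Ctrl lines. Cdh1, labelled as deleted in 1181, was at 9.74 to 27.0 CPM in 23 libraries of the 1181 lines. In 2 libraries the sex-linked genes and Grpr went against the label. The library labelled 1014-Ctrl mock replicate 2 had Grpr at 48.1 CPM, Ddx3y at 64.3 CPM and Xist at 172 CPM, where the other 11 libraries of the line had Ddx3y at 0 and Xist at 582 to 1058 CPM. The library labelled 1181-Grpr GRP+RC replicate 2 had Grpr and Ddx3y at 0 and Xist at 796 CPM, where the other 11 had Ddx3y at 36.9 to 63.0 CPM and Xist at 192 to 251 CPM. The sex-linked values of each thus lay in or near the range of the other's labelled line, and whether the 2 were exchanged was not tested. Both were kept under their labels, and several levels and results that rest on them are also given without them. Others are given only with them, such as the tests between neighbouring lines and over the 15 pairs in mock cells, and the GRP count in 1014-Ctrl.

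Matricellular proteins are secreted into the extracellular matrix, where they act on cells through integrins, syndecans and other receptors more than they bear load. Tenascin-C and the thrombospondins alter how firmly cells hold to fibronectin, osteopontin and periostin bind integrins, and SPARC binds collagen and calcium. In melanoma, tenascin-C, osteopontin, SPARC and fibronectin are known products of the tumour cells themselves, and their transcripts can change within hours of a growth stimulus.

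The stretches before the start sites of Tnc, Spp1 and Thbs2 are shown because these genes had the widest responses to GRP. Each is the 250 bases upstream of a RefSeq start on GRCm38.p6, written 5′ to 3′ on the strand of the gene. Capitals mark matches to TATAAA, searched on both strands, and to GCGNGGGCG, the EGR family motif. Tnc lies on the minus strand, and its stretch is chr4:64047016-64047265. Spp1 lies on the plus strand (chr5:104434861-104435110) and Thbs2 on the minus strand (chr17:14694263-14694512).
Tnc: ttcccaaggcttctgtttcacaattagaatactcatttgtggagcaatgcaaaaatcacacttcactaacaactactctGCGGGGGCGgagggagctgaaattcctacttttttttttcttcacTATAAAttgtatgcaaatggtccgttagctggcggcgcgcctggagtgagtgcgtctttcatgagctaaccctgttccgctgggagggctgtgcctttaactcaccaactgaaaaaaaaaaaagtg
Spp1: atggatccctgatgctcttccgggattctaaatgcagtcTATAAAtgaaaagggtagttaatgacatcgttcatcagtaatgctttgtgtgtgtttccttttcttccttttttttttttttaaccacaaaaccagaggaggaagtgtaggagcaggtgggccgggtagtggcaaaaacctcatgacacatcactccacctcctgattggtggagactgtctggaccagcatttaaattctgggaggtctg
Thbs2: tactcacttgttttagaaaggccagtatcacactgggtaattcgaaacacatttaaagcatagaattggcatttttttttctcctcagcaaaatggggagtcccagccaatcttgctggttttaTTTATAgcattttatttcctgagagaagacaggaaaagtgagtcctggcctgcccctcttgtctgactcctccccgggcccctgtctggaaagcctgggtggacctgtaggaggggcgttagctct
In Tnc, GCGGGGGCG lies at -171 to -163 from the start and TATAAA at -126 to -121, and the 2 motifs do not overlap. In Spp1, TATAAA lies at -211 to -206. In Thbs2 the match lies at -126 to -121 and reads TATAAA on the other strand. Over 32817 mouse promoters of the same length, TATAAA was present in 12.4% and GCGNGGGCG in 4.7%. Motifs of AP-1 (TGANTCA, in 6.75% of promoters), CRE (TGACGTCA, 1.55%) and TEAD (GGAATG, 12.6%) had no match in these 3 stretches. Of the 10 genes, 8 had a promoter entry in the RefSeq table used. Thbs1 and Fn1 had none there.

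On GRCm38, Tnc spans chromosome 4 from 63959785 to 64047015, and Thbs1 chromosome 2 from 118111876 to 118127133. Thbs2 spans chromosome 17 from 14665500 to 14694235, Spp1 chromosome 5 from 104435118 to 104441050, and Fn1 chromosome 1 from 71585520 to 71653200. Exon overlaps were taken from a later GENCODE release than the M13 used for the counts, and the overlap in M13 was not checked. In Spp1, 18.75% of exon bases are shared with the annotated gene Gm42793 on the same strand, so that counts of Spp1 may be less certain. Exons shared with genes on the opposite strand amounted to 2.26% in Tnc, 3.42% in Thbs1, 6.59% in Thbs3 and 2.5% in Fn1, and Thbs2, Postn and Sparc shared none.

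In mock cells the members spread over the whole range of transcript abundance. On the authors' TPM scale, which allows comparison between genes, Sparc led in 1057 at 4312 ± 101 TPM (SD, n = 3) and ranked 14 among the 22477 genes detected there. Tnc stood at 0.327 ± 0.0289 TPM in the same cells, and Tnr was listed at 0.01 TPM in 1 library and at 0 in the others. Sparc was also highest in 1064 (3276 TPM) and 1014-Grpr (829 TPM), followed by Spp1 in 1064 at 788 ± 597 TPM and by Fn1 in 1014-Grpr at 313 ± 19.5 TPM.

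**Figure D1:**
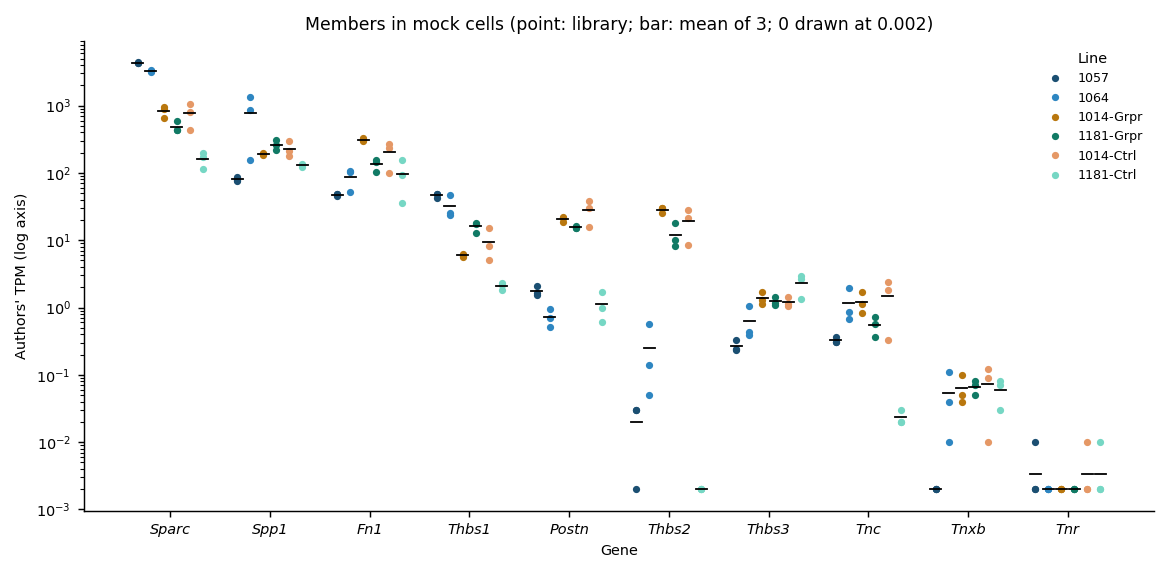
Transcript level of the 10 genes in mock cells, in the authors' TPM on a log axis; each point is 1 library, the bar is the mean of 3 libraries and colours mark the 6 lines. Values of 0 are drawn at 0.002. Sparc lies at 4312 TPM in 1057 and at 160 TPM in 1181-Ctrl, and Tnr stays at or under 0.01 TPM.

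Tnc codes for tenascin-C, a hexameric glycoprotein of developing and wounded tissue that weakens adhesion to fibronectin. In mock cells it was low in every line, from 3.17 ± 2.24 CPM in 1014-Ctrl to 0.0483 ± 0.0116 CPM in 1181-Ctrl (SD, n = 3), and of neighbours in that order only 1057 and 1181-Ctrl differed (adjusted p = 4.75e-04, edgeR). In bulk RNA, fewer cells with the transcript and less of it in every cell cannot be told apart. In 1057 the 3 mock libraries read 0.950, 0.805 and 0.795 CPM and the GRP libraries 22.8, 21.8 and 23.0 CPM. The groups lay far apart and the libraries within each were close together, with a log2 difference of 4.75 ± 0.10 (edgeR estimate ± SE). In 1064 the mock libraries read 1.61, 2.17 and 5.23 CPM and the GRP libraries 68.1, 37.5 and 19.0 CPM, a log2 difference of 3.78 ± 0.52. Every GRP library exceeded every mock library, but the replicate lowest in mock was the highest with GRP. In 1014-Grpr the mock libraries read 2.46, 3.71 and 1.72 CPM and the GRP libraries 53.0, 159 and 158 CPM, a log2 difference of 5.52 ± 0.48. Replicate 1 reached a lower level than replicates 2 and 3. In 1181-Grpr the mock libraries read 1.49, 0.747 and 1.19 CPM and the GRP libraries 8.02, 0.821 and 3.54 CPM, so that the groups overlapped. Grpr itself in these 1181-Grpr libraries read 17.9, 8.96 and 8.46 CPM in mock and 80.7, 19.0 and 39.5 CPM with GRP, and replicate 2 was the lowest for both genes with GRP. Mean Grpr changed with GRP in the other GRPRpos lines too, without overlap of the groups. It went from 125 to 536 CPM in 1014-Grpr, from 274 to 203 CPM in 1057 and from 1001 to 496 CPM in 1064. The part of Grpr level in the Tnc difference was not tested. In 1014-Ctrl, which lacks the receptor, the mock libraries read 5.09, 0.702 and 3.73 CPM and the GRP libraries 4.82, 5.05 and 3.34 CPM. The low mock value is the library that goes against its label, and without it the mock libraries stood at 3.73 to 5.09 CPM. In 1181-Ctrl, Tnc was close to absent, with 4 counts over the 3 mock libraries and 7 over the GRP libraries.

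For Tnc, GRP+RC against RC uses libraries outside GRP against mock, while RC against mock shares the mock libraries with it. The gene was chosen with results of all 72 libraries known, so neither test is independent of that choice. GRP+RC against RC alone compares cells with and without GRP while RC-3095 is present in both. In 1057 Tnc read 1.43, 1.53 and 1.34 CPM with RC and 8.09, 7.54 and 8.29 CPM with GRP+RC. The groups did not overlap, and Tnc rose by 2.48 ± 0.10 on the log2 scale (adjusted p = 1.03e-11, edgeR's quasi-likelihood test). Over 9 alternatives its rise ranged from 1.38 to 2.58 with an adjusted p of at most 0.0284. In 1014-Grpr it read 2.44, 4.38 and 2.41 CPM with RC and 6.26, 12.2 and 13.9 CPM with GRP+RC, a log2 difference of 1.80 ± 0.49 (adjusted p = 0.319, edgeR). With replicate number as a block the difference was 1.85 ± 0.25 (adjusted p = 1.21e-04, edgeR), and over 9 alternatives it ranged from 1.26 to 2.06 and passed in 2. In 1064 the RC libraries read 4.10, 3.78 and 5.0 CPM and the GRP+RC libraries 5.67, 5.07 and 5.88 CPM, and the difference of 0.36 ± 0.47 did not pass the test (adjusted p = 1, edgeR). RC alone also moved Tnc in 1057, from 0.795 to 0.950 CPM in mock to 1.34 to 1.53 CPM, a rise of 0.75 ± 0.16 (adjusted p = 0.00173, edgeR).

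The other tenascins were near the limit of detection. Tnr, which codes for the tenascin-R of the nervous system, never exceeded 2 counts in a library and was tested in no line. Tnxb, which codes for the tenascin-X of connective tissue, reached at most 0.636 CPM, in a GRP+RC library of 1064. At such levels a response to GRP was not detectable.

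**Figure D2:**
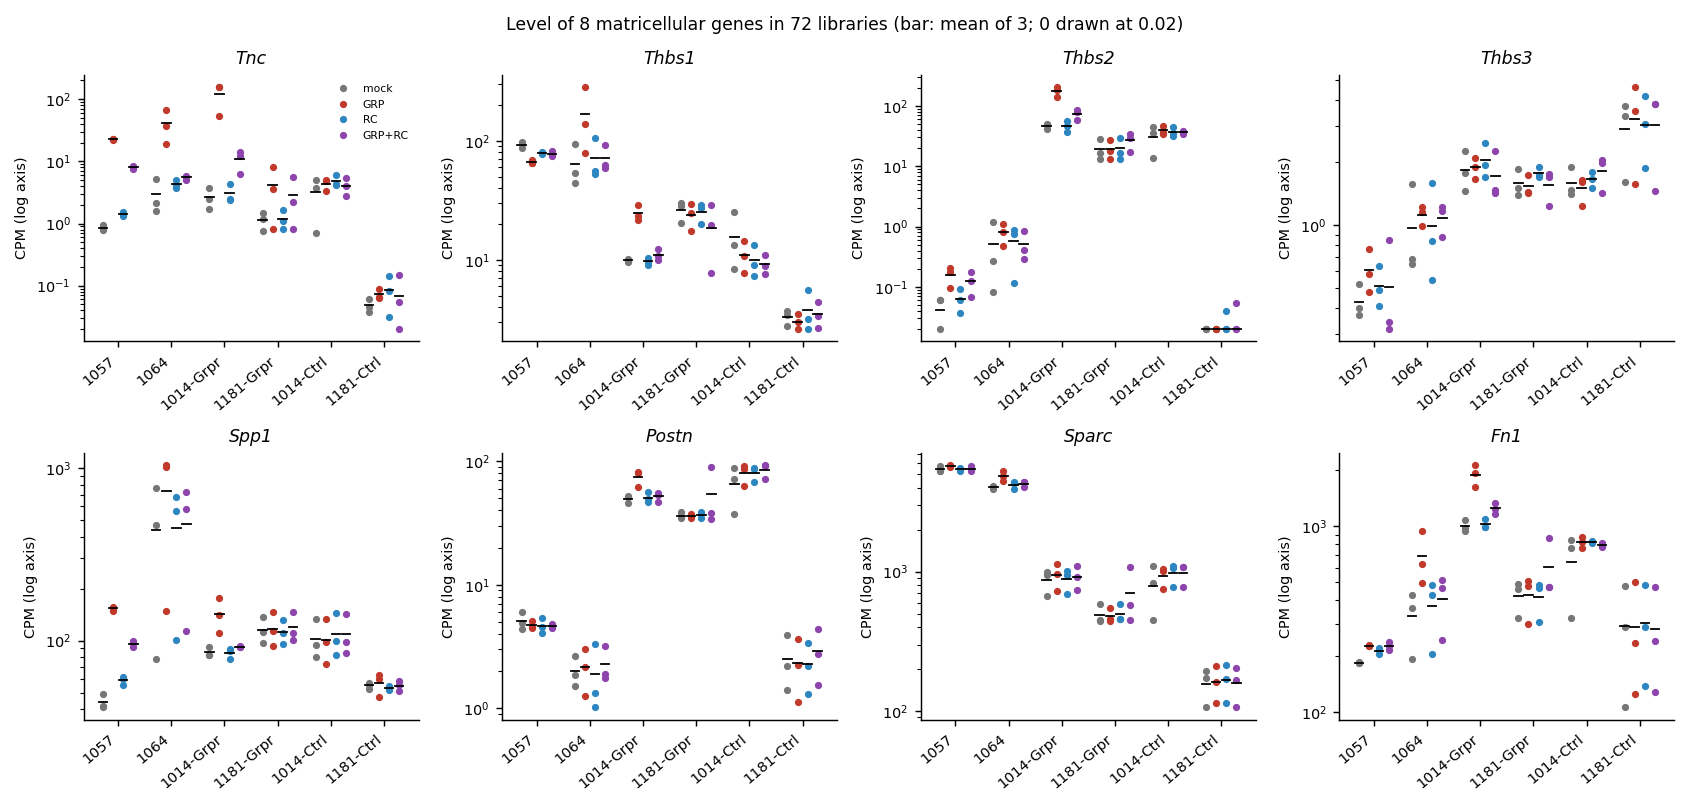
Level of the 8 members that passed 1 CPM in any group, in CPM on log axes, in all 72 libraries; points are libraries, bars are means of 3 libraries and colours mark the treatments. Values of 0 are drawn at 0.02. With GRP, Tnc stands at 21.8 to 23.0 CPM in 1057 and at 53.0 to 159 CPM in 1014-Grpr, and in 1181-Ctrl no library passes 0.147 CPM.

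Thbs1 codes for thrombospondin-1, a trimeric glycoprotein that activates latent TGF-β and limits vessel growth through CD36 and CD47. It went in opposite directions in different GRPRpos lines. In 1057 it read 86.6, 98.1 and 94.6 CPM in mock and 65.6, 65.8 and 68.7 CPM with GRP. All GRP libraries lay under all mock libraries, and Thbs1 fell by 0.45 ± 0.05 on the log2 scale (adjusted p = 1.16e-07, edgeR). In 1014-Grpr it read 9.65, 9.78 and 10.2 CPM in mock and 21.8, 29.0 and 23.3 CPM with GRP, a rise of 1.33 ± 0.12 (adjusted p = 7.52e-06, edgeR). There the groups were again separate, with GRP on the high side. In 1064 it read 44.5, 93.3 and 53.8 CPM in mock and 285, 139 and 78.3 CPM with GRP. The groups overlapped in 1064, each replicate was higher with GRP than in mock (log2 ratios of 2.68, 0.58 and 0.54), and the difference was 1.40 ± 0.47 (adjusted p = 0.108, edgeR). Thbs1 passed in 1064 with the replicate block, at 1.39 ± 0.38 (adjusted p = 0.0124, edgeR). The GRP effects of 1057 and 1064 differed by -1.88 ± 0.48 (adjusted p = 0.0373, edgeR), and those of 1057 and 1014-Grpr by -1.80 ± 0.49 (adjusted p = 0.0329). In mock cells Thbs1 was highest in 1057 and 1064, at 93.1 ± 5.91 and 63.9 ± 25.9 CPM (SD, n = 3), and these neighbours did not differ beyond their spread (adjusted p = 0.176, edgeR). It was lowest in 1181-Ctrl, at 3.32 ± 0.484 CPM.

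Thbs2, which codes for the related thrombospondin-2, was a transcript of some lines and all but missing in others. In mock cells it stood at 46.2 ± 3.79 CPM in 1014-Grpr, 31.0 ± 15.7 CPM in 1014-Ctrl (39.6 CPM without the library against its label) and 19.1 ± 7.65 CPM in 1181-Grpr. It stood at 0.506 ± 0.583 CPM in 1064 and at 0.0408 ± 0.0353 CPM in 1057, and no count was found in the 3 mock libraries of 1181-Ctrl. The 3 lines with Thbs2 above 10 CPM did not differ between neighbours beyond their spread, and the step from 1181-Grpr to 1064 passed (adjusted p = 1.76e-12, edgeR). With GRP, 1014-Grpr went from 42.0, 49.3 and 47.4 CPM to 142, 208 and 181 CPM. Every GRP library was above every mock library, and Thbs2 rose by 1.94 ± 0.17 (adjusted p = 7.64e-06, edgeR). In 1181-Grpr, where the gene was also present, it read 27.7, 13.2 and 16.3 CPM in mock and 27.0, 13 and 17.7 CPM with GRP, and the difference of 0.01 ± 0.40 did not pass. The GRP effects of 1181-Grpr and 1014-Grpr differed by -1.92 ± 0.52 (adjusted p = 0.0307, edgeR). In 1014-Ctrl, with no receptor, Thbs2 read 35.2, 13.6 and 44.1 CPM in mock and 36.3, 34.2 and 47.1 CPM with GRP, the low mock value again belonging to the library against its label.

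Thbs3, which codes for a pentameric thrombospondin of cartilage and bone, stayed between 0.317 and 4.63 CPM in all libraries. It passed the test for GRP in no line. Its level in mock was 2.89 ± 1.12 CPM in 1181-Ctrl and 0.430 ± 0.0788 CPM in 1057, and only the lowest step in the order of lines, from 1064 to 1057, passed between neighbours (adjusted p = 0.0118, edgeR).

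Spp1 codes for osteopontin, a phosphorylated ligand of integrins and CD44. In 1057 it read 48.8, 41.0 and 42.0 CPM in mock and 157, 149 and 155 CPM with GRP. The groups were separate and tight, and Spp1 rose by 1.83 ± 0.05 (adjusted p = 2.6e-15, edgeR). In 1014-Grpr it went from 92.0, 82.9 and 83.0 CPM to 110, 140 and 176 CPM, a rise of 0.73 ± 0.13 (adjusted p = 0.00105, edgeR). The groups were separate there too. In 1064 it read 78.3, 465 and 761 CPM in mock and 149, 1039 and 1013 CPM with GRP. Replicate 1 was far lower than the others in both groups, and the difference of 0.77 ± 0.99 did not pass (adjusted p = 0.725, edgeR). The estimate with the replicate block was 0.83 ± 0.12 (adjusted p = 4.42e-04, edgeR), with each of the 3 replicates higher with GRP. In 1181-Grpr, Spp1 stood at 96.9 to 137 CPM in mock and at 92.7 to 146 CPM with GRP, so the groups overlapped. In mock cells 1064 was highest, at 435 ± 342 CPM, and differed from the next line, 1181-Grpr at 115 ± 20.3 CPM (adjusted p = 7.92e-04, edgeR). No other neighbours in the order differed.

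**Figure D3:**
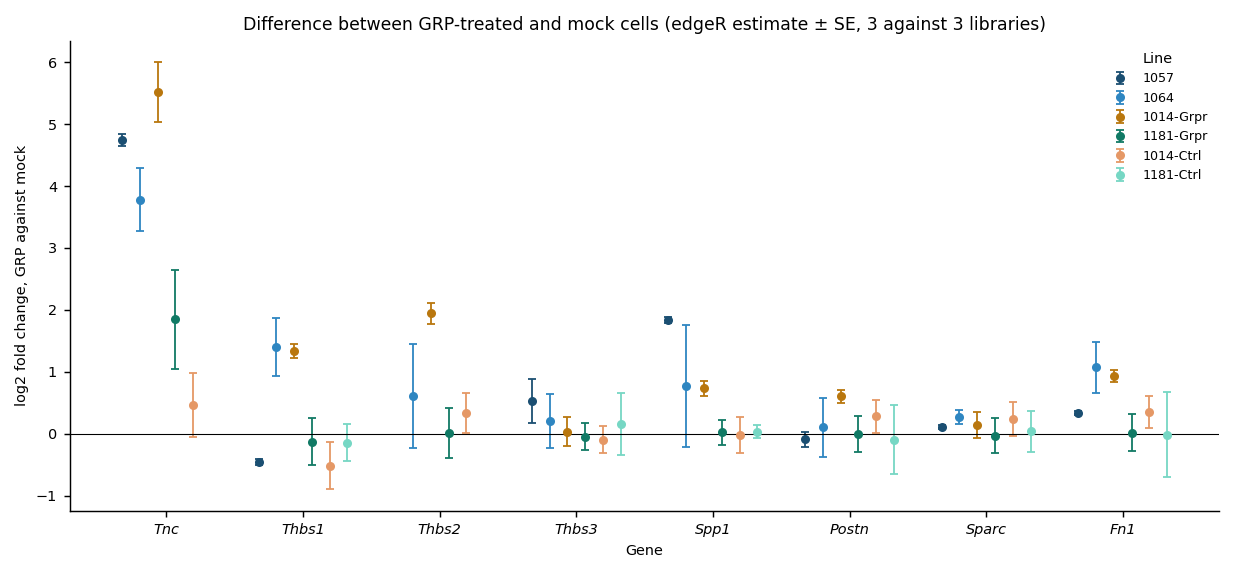
Log2 difference between GRP and mock for 8 members in each line (edgeR estimate ± SE, 3 against 3 libraries); a member without a point was not tested in that line. Thbs1 lies at -0.45 in 1057 and at 1.33 in 1014-Grpr, and Spp1 at 1.83 in 1057 and 0.73 in 1014-Grpr.

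Postn codes for periostin, a fasciclin-domain protein that binds integrins and tenascin-C. In mock cells it stood at 65.6 ± 26.0 CPM in 1014-Ctrl (79.8 CPM without the library against its label), 49.7 ± 3.19 CPM in 1014-Grpr and 36.4 ± 1.96 CPM in 1181-Grpr, and at 5.11 ± 0.840 CPM or less in the other 3 lines. The step between 1181-Grpr and 1057 passed (adjusted p = 1.78e-09, edgeR), and so did that from 1057 to 1181-Ctrl, at 2.49 ± 1.27 CPM (adjusted p = 0.0111, edgeR). With GRP, 1014-Grpr went from 46.0, 51.9 and 51.0 CPM to 61.6, 80.8 and 82.0 CPM. All GRP libraries were higher, and Postn rose by 0.60 ± 0.11 (adjusted p = 0.00128, edgeR). In 1057 the difference was -0.09 ± 0.13 (adjusted p = 0.573, edgeR).

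Sparc codes for osteonectin, which binds collagen and is abundant in melanoma cells. Its order in mock ran from 1057 (5428 ± 247 CPM) and 1064 (4035 ± 102 CPM) to 1014-Grpr (865 ± 174 CPM), 1014-Ctrl (791 ± 323 CPM), 1181-Grpr (492 ± 81.4 CPM) and 1181-Ctrl (157 ± 45.2 CPM). The steps after 1064 and after 1181-Grpr passed (adjusted p = 3.28e-10 and 2.74e-06, edgeR), and the other neighbours did not differ beyond their spread. Without the library against its label 1014-Ctrl stood at 960 CPM, above 1014-Grpr. GRP changed it little. In 1057 it read 5712, 5304 and 5267 CPM in mock and 5639, 5830 and 5705 CPM with GRP, a rise of 0.10 ± 0.03 (adjusted p = 0.0158, edgeR) between overlapping groups. In 1064 it read 3935, 4030 and 4139 CPM in mock and 5265, 4818 and 4503 CPM with GRP. The groups in 1064 did not overlap, the difference was 0.28 ± 0.11 (adjusted p = 0.184, edgeR), and with the replicate block it was 0.27 ± 0.05 (adjusted p = 0.00193, edgeR). In 1014-Grpr the estimate was 0.14 ± 0.21 (adjusted p = 0.671, edgeR), and with the block 0.13 ± 0.04 (adjusted p = 0.008, edgeR).

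Fn1 codes for fibronectin, the adhesive glycoprotein on which several of these proteins act. In 1014-Grpr it read 981, 1087 and 948 CPM in mock and 1626, 2141 and 1933 CPM with GRP. The groups were separate, and Fn1 rose by 0.93 ± 0.10 (adjusted p = 3.82e-05, edgeR). In 1057 it read 183, 186 and 184 CPM in mock and 228, 229 and 228 CPM with GRP, a smaller and very even rise of 0.34 ± 0.03 (adjusted p = 8.7e-08, edgeR). In 1064 it read 366, 194 and 429 CPM in mock and 949, 497 and 628 CPM with GRP. All GRP libraries were higher, the difference was 1.08 ± 0.41 (adjusted p = 0.155, edgeR), and with the replicate block it was 1.11 ± 0.14 (adjusted p = 1.95e-04, edgeR). In mock cells Fn1 was highest in 1014-Grpr, at 1005 ± 73.0 CPM, and lowest in 1057, at 184 ± 1.35 CPM, with no pair of neighbours differing beyond the spread. In 1181-Ctrl it followed the replicate number under every treatment, at 106 to 139 CPM in replicate 1, 236 to 287 CPM in replicate 2 and 470 to 500 CPM in replicate 3.

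**Figure D4:**
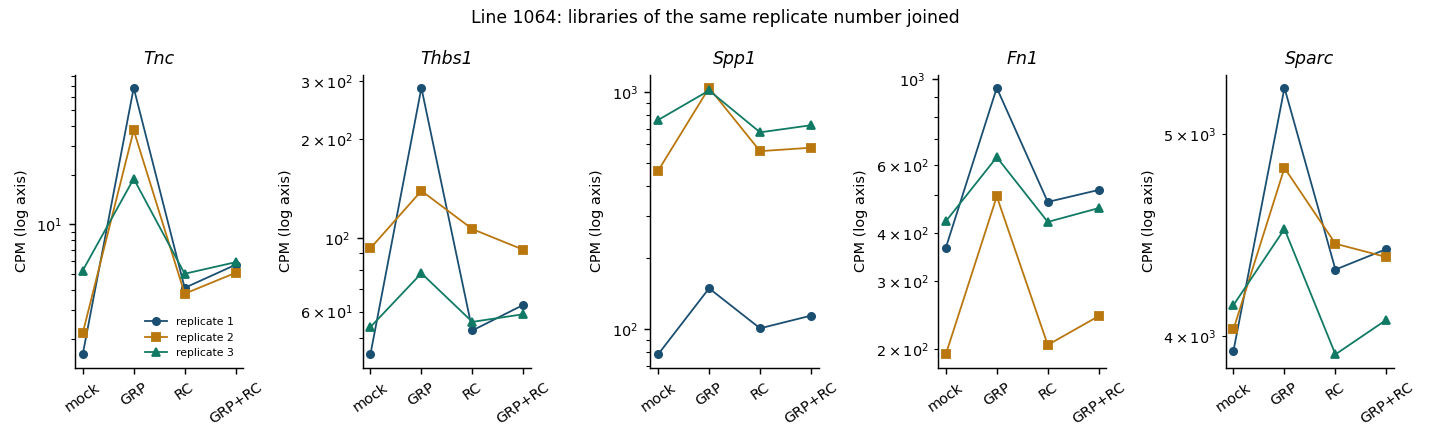
Members Tnc, Thbs1, Spp1, Fn1 and Sparc in line 1064 by treatment, in CPM on log axes; each point is 1 library and lines join libraries of the same replicate number. Spp1 in replicate 1 stays between 78.3 and 149 CPM, under the other replicates at every treatment, and rises with GRP like them.

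Counted over the members, the share that passed the test was set beside the share of all genes that did (adjusted p under 0.05, edgeR). Tnc, chosen for its difference with GRP, is left out of the counts for GRP against mock and its differences. In 1057, 3 of the 6 other members tested were higher with GRP (Spp1, Fn1 and Sparc) where 25.7% of all genes tested were, and 1 was lower (Thbs1) where 26.9% were. The log2 difference ran from -0.455 (Thbs1) to 1.835 (Spp1) over the members other than Tnc, and its median over all genes was -0.01. With an absolute log2 difference above 1 as well, 1 was higher (Spp1), against 4.96% of genes. In 1064, 0 of the 7 others passed with edgeR, against 3.62% of genes, and against 1.52% above the fold limit, with 3068 genes at an unadjusted p under 0.05. DESeq2 passed some of these 7 there. With the replicate block 4 of the 7 were higher (Thbs1, Spp1, Sparc and Fn1), against 20.5% of genes. In 1014-Grpr, 5 of the 7 others were higher (Thbs1, Thbs2, Spp1, Postn and Fn1), against 16.3% of genes, and 2 were so above the fold limit (Thbs1 and Thbs2), against 3.16%. The difference in 1014-Grpr ran from 0.034 (Thbs3) to 1.944 (Thbs2) over the members other than Tnc, and its median over all genes was -0.02. Since the list was put together with these results known, no test was made of these shares.

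In 1181-Grpr none of the members other than Tnc passed with GRP, where 0% of all genes did. With edgeR 45 genes had an unadjusted p under 0.05, and DESeq2 called 0. Without the library against its label and with the replicate block, 0.413% of genes were higher, with none of the members other than Tnc among them. In the same fit the difference of Tnc was 1.83 ± 0.25 for GRP against mock and -1.77 ± 0.28 for GRP+RC against GRP. The library left out read 5.69 CPM for Tnc, 7.82 for Thbs1 and 89.4 for Postn, where the other GRP+RC libraries read 0.824 to 2.25, 19.6 to 28.7 and 34.1 to 38.1 CPM. In the GRPRneg lines none of the members other than Tnc passed in 1014-Ctrl (0% of all genes), and 0 of 6 did in 1181-Ctrl (0% of all genes). At an unadjusted p under 0.05, edgeR had 562 genes in 1014-Ctrl and 37 in 1181-Ctrl, and DESeq2 called 0 in both. Between the engineered cells and their control, the GRP effect was larger in 1014-Grpr than in 1014-Ctrl for 2 of the 7 members other than Tnc, against 9.08% of genes. These were Thbs1 (1.84 ± 0.41, adjusted p = 0.00504, edgeR) and Thbs2 (1.61 ± 0.38, adjusted p = 0.00731, edgeR), and for Tnc the difference was 5.08 ± 0.71. Without the mock library against its label Thbs1 stood at 1.33 ± 0.32 (adjusted p = 0.00729, edgeR) and Thbs2 at 1.97 ± 0.25 (adjusted p = 1.29e-05, edgeR), and Fn1 passed too, at 0.91 ± 0.13 (adjusted p = 4.71e-05, edgeR). With that library left out and the replicate block, 6 of these 7 were larger in 1014-Grpr, against 21.4% of genes. Between 1181-Grpr and 1181-Ctrl none of the members other than Tnc differed in the GRP effect. There edgeR had 58 genes at an unadjusted p under 0.05 and DESeq2 called 0, so the lack of a difference is not particular to the members. Averaged over the 4 GRPRpos lines, 4 of the 8 members other than Tnc were higher with GRP, against 13.3% of genes. These were Thbs2 (1.09 ± 0.34, adjusted p = 0.0129), Spp1 (0.83 ± 0.24, adjusted p = 0.00752), Fn1 (0.58 ± 0.20, adjusted p = 0.0281) and Thbs1 (0.53 ± 0.17, adjusted p = 0.0166, all edgeR). The average hides the fall of Thbs1 in 1057. For Thbs2 it includes 1057, where the gene was too low to be tested within the line (4 counts in mock, 15 with GRP). The fit behind the average still set the Thbs2 effect in 1057 near that in 1014-Grpr, with a difference of -0.078. In 1181-Grpr, which expressed Thbs2, the difference between GRP and mock was 0.012. The average for Thbs2 thus rests in part on counts near the floor. Between the GRPRpos and the GRPRneg average none of these 8 differed with edgeR, against 5.47% of genes that were higher in GRPRpos, with 3551 genes at an unadjusted p under 0.05, and the difference of Tnc was 3.48 ± 1.15. Thbs1 passed with DESeq2 (0.86, adjusted p = 0.0388) and with the replicate block (0.82, adjusted p = 0.0285, edgeR), and so did Spp1 with the block (0.84, adjusted p = 4.41e-10, edgeR).

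RC-3095 took back part of the GRP response. GRP+RC against GRP shares the GRP libraries with GRP against mock, so the opposite sign of the 2 differences is no separate evidence. In 1057, 1 of the 6 members other than Tnc was lower with GRP+RC than with GRP (Spp1), against 13.7% of genes, and 1 was higher, Thbs1, against 11% of genes. Tnc fell from 21.8 to 23.0 CPM to 7.54 to 8.29 CPM, by 1.52 ± 0.07 on the log2 scale. Spp1 fell from 149 to 157 CPM to 91.7 to 99.1 CPM, by 0.70 ± 0.05 (adjusted p = 7.11e-09, edgeR). Both remained above all RC and mock libraries. Thbs1 rose from 65.6 to 68.7 CPM to 75.3 to 82.5 CPM, by 0.20 ± 0.05 (adjusted p = 0.00273, edgeR), and its libraries then spanned those of RC alone, at 77.6 to 80.8 CPM. In 1014-Grpr, 5 of the 7 others were lower with GRP+RC, against 8.06% of genes. Tnc fell by 3.51 ± 0.42, to 6.26 to 13.9 CPM. Thbs2 fell by 1.27 ± 0.17 (adjusted p = 4.52e-04, edgeR), from 142 to 208 CPM to 58.9 to 83.6 CPM. Thbs1 fell by 1.16 ± 0.12 (adjusted p = 7.94e-05, edgeR), to 10.1 to 12.3 CPM, where its mock libraries stood at 9.65 to 10.2 CPM. Spp1, Fn1 and Postn fell by 0.63 ± 0.13, 0.60 ± 0.10 and 0.53 ± 0.11 (adjusted p = 0.00695, 0.00206 and 0.00696, edgeR). In 1064 none of the 7 members other than Tnc passed, where 0.029% of genes did, with 1376 genes at an unadjusted p under 0.05. Tnc there went to 5.07 to 5.88 CPM, a difference of -2.92 ± 0.49. In 1064 with the replicate block 4 of the 7 others were lower (Thbs1, Spp1, Sparc and Fn1), against 10.9% of genes.

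**Figure D5:**
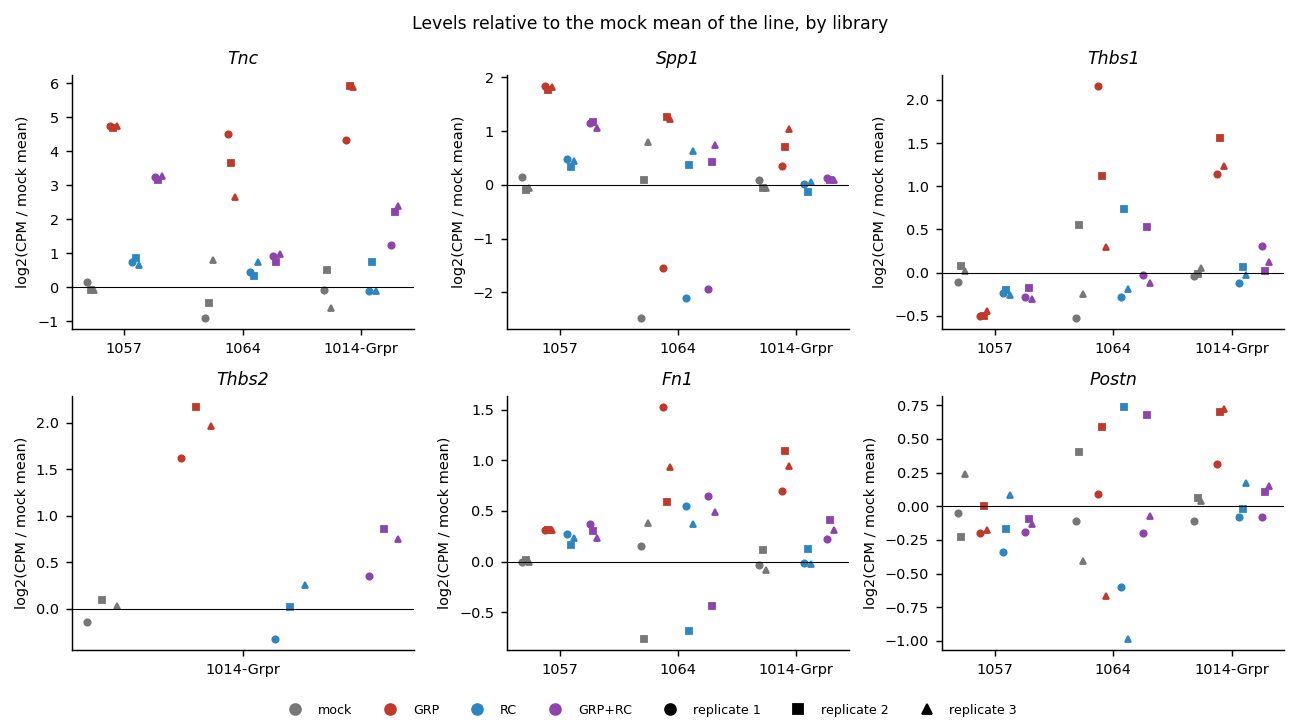
Level of 6 members in each library relative to the mock mean of its line, as log2(CPM / mock mean), in 1057, 1064 and 1014-Grpr (1014-Grpr alone for Thbs2, which was near 0 in the others); colours mark treatments and symbols replicate numbers. In 1057 the GRP+RC libraries of Tnc, at 7.54 to 8.29 CPM, lie between those of GRP and of RC.

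GRP in the presence of RC-3095 still moved 2 of 7 members upward in 1057, against 10.7% of genes. Beside Tnc this was Spp1, which read 61.2, 55.6 and 59.9 CPM with RC and 97.3, 99.1 and 91.7 CPM with GRP+RC, a rise of 0.71 ± 0.05 (adjusted p = 1.3e-08, edgeR). Thbs1 and Fn1 did not pass, at -0.01 ± 0.05 and 0.09 ± 0.03 (adjusted p = 0.906 and 0.0673, edgeR). In 1014-Grpr 0% of genes passed, none of the 8 members among them. There edgeR had 952 genes at an unadjusted p under 0.05, and DESeq2 passed 98 genes, of which 1 was a member. With the replicate block 3 of 8 were higher, against 5.83% of genes. These were Tnc, Thbs2 at 0.66 ± 0.07 (adjusted p = 7.46e-06, edgeR) and Fn1 at 0.28 ± 0.05 (adjusted p = 8.47e-04, edgeR). RC alone against mock, which shares the mock libraries with GRP against mock, moved members in 1057. In that line 3 of 7 were higher, against 13% of genes, and 1 was lower, against 11.3%. Spp1 rose from 41.0 to 48.8 CPM to 55.6 to 61.2 CPM, by 0.42 ± 0.05 (adjusted p = 1.75e-05, edgeR). Fn1 rose by 0.22 ± 0.03 and Thbs1 fell by 0.24 ± 0.05 (adjusted p = 1.05e-04 and 7.67e-04, edgeR), each with the sign that GRP alone gave in that line. In the other 5 lines no member passed with edgeR or DESeq2, with 33 to 694 genes per line at an unadjusted p under 0.05 in edgeR. The share of all genes past the adjusted p in these lines is not given here, so nothing particular to the members is read from this. Whether RC acted differently in 1057 and the other lines was not tested.

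The engineered and control cells of a line also differed before any treatment. In mock 1181-Grpr against mock 1181-Ctrl, 6 of 9 members were higher, against 9.2% of genes. Among them, Thbs2 and Tnc were too low in 1181-Ctrl to pass the filter on low counts there. They entered this count only through 1181-Grpr, so their direction was fixed by the filter and adds nothing to the comparison of shares. Thbs2 had 1756 counts over the 3 mock libraries of 1181-Grpr and none in 1181-Ctrl, so it was at least 514-fold higher, taking 3 counts over the group as the floor. Postn was higher by 3.87 ± 0.49 (adjusted p = 1.8e-05), Thbs1 by 2.96 ± 0.38 (adjusted p = 2.51e-05) and Sparc by 1.63 ± 0.33 (adjusted p = 0.00239, all edgeR). Spp1 was higher by 1.06 ± 0.17 (adjusted p = 2e-04), and Tnc by 4.41 ± 0.98 against only 4 counts in the control (adjusted p = 0.0052, both edgeR). Xist stood at 192 to 251 CPM in 11 libraries of 1181-Grpr and at 0.0282 to 0.639 CPM in 1181-Ctrl, although both carry Ddx3y. The part of this difference between the cells, which is not one of Grpr alone, was not tested. In mock 1014-Grpr against mock 1014-Ctrl, none of 8 members passed with edgeR and 1 did with DESeq2, where 3.23% of genes passed with edgeR (2905 had an unadjusted p under 0.05). Without the mock library against its label Postn was lower in 1014-Grpr by 0.69 ± 0.16 (adjusted p = 0.0265, edgeR). With the replicate block as well, 4 of 8 members passed, against 17.4% of genes: Tnc, Postn at -0.65 ± 0.06, Sparc at -0.31 ± 0.04 and Fn1 at 0.26 ± 0.06. The value of Tnc was -0.27 ± 0.53 without the block (adjusted p = 0.807, edgeR) and ranged from -1.86 to 0.28 over 9 alternatives, of which it passed in 1.

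Across all 15 pairs of lines in mock cells, the share of genes that differed varied widely. Between 4.69% and 64.2% of genes passed, depending on the pair. Thbs1, Thbs2 and Sparc passed in 12 of 15 pairs each and Postn in 11, Tnc in 9, Thbs3 and Fn1 in 8, Spp1 in 7 and Tnxb in 5. Between pairs of the 4 GRPRpos lines, the GRP effect differed for 0.458% to 3.81% of genes. Among members other than Tnc, Thbs1 and Thbs2 were the ones that differed in at least 1 of the 6 pairs. The shares of genes above come from the fit without the replicate block, and none is given here for the fit with it. With the block Spp1 also differed, in 5 of 6 pairs, and Fn1 in 2. For 1057 minus 1181-Grpr Spp1 stood at 1.80 ± 0.14 (adjusted p = 6.7e-13, edgeR), and for 1064 minus 1181-Grpr Fn1 stood at 1.10 ± 0.30 (adjusted p = 0.00508, edgeR).

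The pathway around the members was read from a list of 25 further matricellular genes and one of 18 receptors. Both lists were chosen with earlier results of these data known, so their shares are a description and no independent evidence. Cd36 passed the filter on low counts only in 1057 and Ccn4 only in 1014-Grpr, each higher there with GRP, so they enter only those counts. The filter thus favoured their direction, and neither gene adds to the comparison of those counts with the share of all genes. With GRP in 1057, 7 of 10 tested matricellular genes were higher and 1 lower, and 10 of 16 receptors were higher and 4 lower, where 25.7% of all genes were higher and 26.9% lower. In 1014-Grpr the counts were 5 higher and 1 lower of 13, and 8 higher of 15, where 16.3% of all genes were higher. In 1064 they were 1 of 11 and 6 of 15, against 3.62% of genes, and with the replicate block 6 of 11 and 8 of 15 were higher, against 20.5%. With that block Ccn1 rose there by 4.13 ± 0.35 and Ccn2 by 3.11 ± 0.32 (adjusted p = 6.37e-05 and 1.05e-04, edgeR). In 1181-Grpr and both Ctrl lines none passed, and in 1181-Grpr without the library against its label and with the block Ccn1 did. Of the receptors, Sdc1, a heparan sulphate proteoglycan that binds tenascin-C, thrombospondin-1 and fibronectin, rose by 0.66 ± 0.04 in 1057 (adjusted p = 1.98e-10), 1.77 ± 0.22 in 1064 (adjusted p = 0.00413) and 2.38 ± 0.21 in 1014-Grpr (adjusted p = 7.52e-06, all edgeR). In 1064 it read 47.4, 62.8 and 83.2 CPM in mock and 188, 282 and 184 CPM with GRP, with no overlap. Sdc4, a syndecan of focal adhesions, rose by 0.57 ± 0.05, 1.17 ± 0.22 and 1.05 ± 0.09 in the same lines (adjusted p = 1.23e-08, 0.0145 and 5.68e-06, edgeR). Itga5, the alpha chain of the fibronectin receptor, rose by 0.45 ± 0.03 in 1057, 0.96 ± 0.12 in 1064 and 1.43 ± 0.08 in 1014-Grpr (adjusted p = 1.82e-09, 0.00413 and 6e-07, edgeR). Itgb8, whose product forms a receptor that activates TGF-β, rose by 2.09 ± 0.13 in 1057 and 1.60 ± 0.27 in 1014-Grpr (adjusted p = 9.19e-11 and 8.88e-04, edgeR). Cd36, a thrombospondin receptor, had 5 counts in the mock libraries of 1057 and 76 with GRP, and stayed under 1 CPM. Against this direction, Cd47 fell by 0.30 ± 0.05 in 1057 (adjusted p = 3.9e-05, edgeR), as did Itga9, a chain of a tenascin-C receptor, by 0.55 ± 0.03 (adjusted p = 1.45e-10, edgeR). The other receptors lower there were Ptprz1, at -0.973 ± 0.309 (adjusted p = 0.0129), and Itga8, at -0.464 ± 0.039 (adjusted p = 9.76e-09, both edgeR).

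Of the other matricellular genes, Tgfbi, a fasciclin-domain relative of Postn, rose in 3 lines. In 1014-Grpr it read 0.273, 0.486 and 0.309 CPM in mock and 1.79, 2.73 and 4.32 CPM with GRP, a rise of 3.03 ± 0.39 (adjusted p = 1.38e-04, edgeR). In 1064 it read 0.165, 0.106 and 0.103 CPM in mock and 0.171, 5.17 and 0.989 CPM with GRP, so that its rise of 4.02 ± 1.05 (adjusted p = 0.0493, edgeR) came from 2 of 3 replicates. In 1057 it rose by 0.68 ± 0.10 (adjusted p = 1.61e-05, edgeR). Ccn1 and Ccn2 rose in 1057 by 4.19 ± 0.11 and 1.45 ± 0.11, and in 1014-Grpr by 5.49 ± 0.50 and 4.22 ± 0.36. Above the fold limit there were also Ccn3 (1.13 ± 0.21) and Sparcl1 (1.38 ± 0.51, from 18 counts in mock) in 1057, and Ccn4 (2.17 ± 0.53) in 1014-Grpr.

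The genes whose pattern over the 24 group means was most like that of each member are given as a description, among 14028 genes, since groups of a line share its background. For Tnc, with means centred on their line, these were Nppb, Ahr and Map2k3, with Pearson's r of 0.981, 0.980 and 0.980. For Sparc they were Ctsh, Gng12 and Ddah1 (r of 0.998, 0.996 and 0.993), and for Postn Insc, Gfra2 and Edil3 (0.995, 0.991 and 0.991). For Thbs1 they were Tec, Asb2 and Pla2g16 (0.966, 0.966 and 0.963), and for Thbs2 Flnc, Moxd1 and Herc6 (0.991, 0.988 and 0.987). For Spp1 they were Procr, Palm2 and Tle3 (0.956, 0.954 and 0.950), for Fn1 Tcaf1, Mrpl13 and Agk (0.977, 0.976 and 0.974), and for Thbs3 Tob1, Prnp and Trp53i13 (0.976, 0.976 and 0.975). Apart from those of Tnc, the means were not centred on their line, so differences between lines enter these values.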

How the data were processed

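RNA of 72 libraries was sequenced from strand-specific polyA libraries (TruSeq Stranded mRNA). Per the labels and the study's methods, the authors aligned paired reads with STAR to mm10 and deposited raw counts per gene on the GENCODE M13 annotation. Whether counting used the strand is not given in the sources used here. The submitters' processing notes also name FastQC 0.11.5. The authors also deposited TPM values, which are scaled for transcript length, and for 12 libraries of line 1057 they wrote other text with decimal commas, read here as decimal points. Of the 50600 gene IDs, 99.557% had a symbol in the tables used here.

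Groups were taken from the labels. The members and all gene lists were chosen with earlier results of these data known, and the pairwise differences between GRPRpos lines were added after the data were seen. The named genes are the 10 members, the genes of the related lists past the threshold, and for each member the 3 genes with the highest Pearson correlation over group means. Counts were analysed per line (12 libraries) with edgeR 4.0.16 (R 4.3.3), filterByExpr, TMM and the quasi-likelihood test with Benjamini-Hochberg adjustment. Passing means an adjusted p under 0.05, and the fold limit is an absolute log2 difference above 1. The SE is the absolute log2 difference over the square root of F. Engineered pairs were fitted in 24 libraries, and the means over lines, the pairs of lines and the differences between them in all 72. Levels are CPM scaled by TMM. The scripts were tested on simulated data. DESeq2 1.42.0, limma 3.58.1 on log2(TPM + 1), no filter on low counts, a single fit, left-out replicates and the replicate block were the alternatives.

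Same-numbered libraries deviated together in 1064, 1014-Grpr and 1181-Ctrl, with all 18 correlations of deviations above 0.1 and means of 0.733, 0.468 and 0.792. In 1181-Grpr and 1014-Ctrl this held only without the library against its label (15 of 15), and in 1057 it did not (1 of 18). The pairing is thus read from the data, and the labels do not explain the numbers. No 2 libraries of the same group agreed within sampling noise, and libraries of different groups were not compared in this way. Depth was 19512882 to 46862053 counts per library. The floor of 3 counts covers counting error only.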

Additional observations from a re-analysis of the deposited data

Results flagged for a closer look

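Differences of the GRP effect between cell lines are listed here, each estimated in 1 fit that held both lines. Tnc was chosen for its rise with GRP, so its differences are a description, with no test.

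Between 1014-Grpr and 1014-Ctrl the log2 effect of GRP differed by 5.08 ± 0.71 for Tnc, by 1.84 ± 0.41 for Thbs1 (adjusted p = 0.00504, edgeR) and by 1.61 ± 0.38 for Thbs2 (adjusted p = 0.00731, edgeR). The average of the GRPRpos lines exceeded that of the GRPRneg lines by 3.48 ± 1.15 for Tnc. Among the GRPRpos lines, 1057 differed from 1064 by -1.88 ± 0.48 for Thbs1 (adjusted p = 0.0373, edgeR) and from 1014-Grpr by -1.80 ± 0.49 (adjusted p = 0.0329, edgeR). For Tnc, 1057 exceeded 1181-Grpr by 2.89 ± 0.79, and 1181-Grpr differed from 1014-Grpr by -3.69 ± 0.76. For Thbs2, 1181-Grpr differed from 1014-Grpr by -1.92 ± 0.52 (adjusted p = 0.0307, edgeR). With the replicate block in the 72-library fit, the effects in 1057 and 1064 also differed for Spp1, by 0.98 (adjusted p = 1.89e-06, edgeR).

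Grpr in mock stood at 8.46 to 17.9 CPM in 1181-Grpr, 109 to 141 CPM in 1014-Grpr, 273 to 276 CPM in 1057 and 780 to 1273 CPM in 1064. The part of these receptor levels in the differences above was not tested.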

How the results depend on the processing

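Of 359 counts recomputed under an alternative, 322 stayed within 1.5 times the reported count. Of 3377 values for single genes, 3202 kept their direction and side of the threshold, 87 gained and 85 lost a call and 3 turned sign. Counts here are of members past both the adjusted p and the fold limit. They include Tnc and describe only how calls move with the processing. With the adjusted p alone they were 5 for GRP against mock in 1057 (2 with both), 4 for RC against mock (0), 3 for GRP+RC against GRP (1) and 2 for GRP+RC against RC (1) in that line, 6 for both GRP against mock and GRP+RC against GRP in 1014-Grpr (3 each), 5 for the GRPRpos average (2) and 43 for the related genes. In 1 fit of 72 libraries there were 0 for GRP+RC against GRP in 1057, and in 1064 there were 2 for GRP against mock (1) and 2 for GRP+RC against GRP (0). DESeq2 gave 2 and 1 for these comparisons in 1064. Without a filter on low counts there was 1 for GRP+RC against GRP in 1064, 1 for GRP+RC against RC in 1014-Grpr (0) and 0 for GRPRpos minus GRPRneg (1). The related genes past the limits numbered 10 with limma on TPM.

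With the replicate block there were 3 for GRP against mock and 2 for GRP+RC against GRP in 1064, 1 for GRP+RC against RC in 1014-Grpr, 0 for GRPRpos minus GRPRneg, and 2 each for 1057 minus 1181-Grpr (1), 1057 minus 1014-Grpr (1) and 1064 minus 1181-Grpr (0). With the block and without the library against its label there was 1 (0) for GRP against mock and 1 for GRP+RC against GRP in 1181-Grpr and 1 for mock 1014-Grpr against 1014-Ctrl, and without both libraries 0 for GRPRpos minus GRPRneg. Without both libraries and no block there was 1 for 1064 minus 1181-Grpr. Sparc turned sign in these fits, to 0.26 for the difference of the GRP effect in line 1014 (adjusted p = 1.64e-04), -0.31 for mock 1014-Grpr against 1014-Ctrl (adjusted p = 1.38e-05) and 0.15 for GRPRpos minus GRPRneg (adjusted p = 0.00102, all edgeR). Leaving out 1 replicate gave 0 to 1 for GRP against mock in 1064 (0 without replicate 1 or 2), 1 to 2 for the GRPRpos average (1 without replicate 1 or 2), 0 for GRPRpos minus GRPRneg, and 10 to 18 (17 in all, 10 without replicate 2) for the related genes. The cause of these shifts was not tested.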
